A study of Homo sapiens with 2 samples.

Results

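The peroxiredoxin and antioxidant genes described here are PRDX1, PRDX2, PRDX5, PRDX6, GPX1, GPX4, SOD1, TXN, TXNRD1 and NQO1, which were examined for RNA 5-methylcytosine (m5C) in 2 human breast cell lines. They were taken by name, and their members are the cytosines with a coverage of at least 10 reads on exons of their annotated transcripts, on the same strand. They numbered 2563 of the 1584002 kept cytosines of MCF10A and 1777 of the 1271253 of MDA-MB-468. MCF10A is a line of nontumorigenic mammary epithelial cells, and MDA-MB-468 is a breast cancer line. Both came from ATCC, and 1 RNA BS-Seq library was made from each. By the study's methods, the medium of MCF10A held horse serum, EGF, hydrocortisone and insulin, and MDA-MB-468 grew in RPMI with FBS. No further treatment was given. Line and medium differed together, so their parts in any difference below cannot be told apart. In RNA BS-Seq, bisulfite acts on the poly(A)-selected RNA (here for 8 hours at 60 degrees), so that unmethylated cytosine is read as thymine and a cytosine that stays unconverted is counted as methylated. There were no replicates, so the tests below compare 2 libraries, or a cytosine with the rest of its own library, and they do not cover variation between cultures.

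Antioxidant enzymes remove the superoxide and peroxides that respiration and growth signaling produce. Superoxide dismutases turn superoxide into hydrogen peroxide, which peroxiredoxins and glutathione peroxidases then reduce, and thioredoxin and thioredoxin reductase recharge the peroxiredoxins with electrons from NADPH. Many of these genes are induced by the transcription factor NRF2, and tumor cells often lean on them to tolerate oxidative stress.

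The libraries held 76098976 counts in MCF10A and 90960018 in MDA-MB-468 before filtering, and median coverage per kept site was 18 in either line. Marker genes were read as total counts at kept sites. EGFR and SEC61G, which lie in the EGFR amplicon of MDA-MB-468, had 13249 and 1350 counts in MCF10A and 151119 and 17442 in MDA-MB-468. RB1, lost in MDA-MB-468, had 185 and 0 counts, and CDKN2A and MTAP, deleted in MCF10A, had 0 counts there and 11274 and 174 in MDA-MB-468. Of the keratins, KRT5 had 15341 and 4960 counts, KRT19 had 498 and 525667, and the basal KRT14 had no kept site in either line. The leukocyte genes PTPRC and CD3E and the collagen COL3A1 had no kept site, whereas COL1A1 had 0 counts in MCF10A and 4189 in MDA-MB-468.

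Over the 10 genes together, MCF10A had 4881 unconverted among 250847 counts and MDA-MB-468 had 1952 among 92714. The nonconversion was therefore 1.95% (95% Wilson interval 1.89% to 2.0%) and 2.11% (2.01% to 2.20%), beside 1.99% and 1.81% over all kept sites. Wilson intervals here cover counting error only and are too narrow, because neighboring cytosines are read from the same fragments and the counts carry no molecular identifiers. No unconverted read was seen at 829 sites (32.3%) in MCF10A and at 773 sites (43.5%) in MDA-MB-468. A site was called m5C when its unconverted share exceeded the background of its library in a one-sided Fisher's exact test, with Benjamini-Hochberg adjustment at 0.05 over all kept sites. There were 15 m5C sites in MCF10A on 6 genes, which is 0.585% of the member sites beside 0.960% of all kept sites. There were 20 in MDA-MB-468 on 4 genes, which is 1.13% beside 0.840%. At least 1 m5C site was found on 21.2% of all protein-coding genes with kept sites in MCF10A and on 17.0% in MDA-MB-468. The antioxidant transcripts were read deeper than most, with a median coverage of 68 and 31 per site, and deeper sites need a smaller unconverted share to be called. At called sites read exactly 20 times the lowest number of unconverted reads seen was 5 in MCF10A (4 in MDA-MB-468), and at those read 100 times it was 9 (10 in MDA-MB-468).

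The m5C sites lay in a few short runs. Of the 15 in MCF10A, 11 had another m5C site within 10 nt, and so did 18 of the 20 in MDA-MB-468. Their methylation ratio, the unconverted share of the reads at a site, ranged from 12.8% to 30.8% in MCF10A with a median of 19.2%. In MDA-MB-468 it ranged from 14.3% to 37% with a median of 22.5%. GPX1 carried 6 m5C sites in each line, and these were the same cytosines. The other sites were called in 1 line: PRDX1 had 4 sites in MCF10A and 3 others in MDA-MB-468, TXNRD1 had 1 and 7, NQO1 had 0 and 4, and GPX4, PRDX5 and PRDX6 had 2, 1 and 1 in MCF10A and none in MDA-MB-468. PRDX2, SOD1 and TXN had none in either line.

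**Figure D1:**
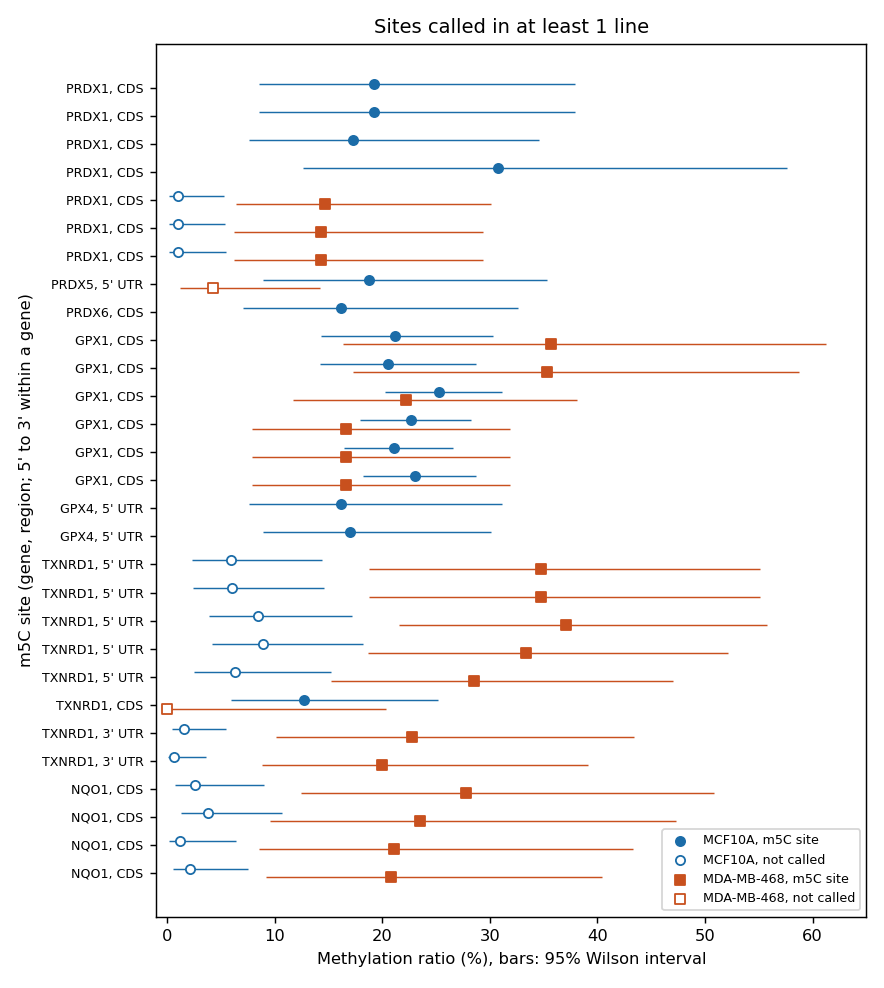
Methylation ratio (x axis, percent) of every cytosine of the antioxidant genes called m5C in at least 1 line (y axis, gene and transcript region, ordered 5′ to 3′ within a gene). Circles are MCF10A and squares MDA-MB-468, filled where called and open where not, bars are 95% Wilson intervals, a missing point means a coverage under 10, and the region is given as 5′ UTR where any basic transcript has it so. The 6 GPX1 sites are filled in both lines, and all other sites in 1 line.

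The transcripts of the 10 genes were not equally abundant in the libraries, and abundance sets the coverage of their cytosines. A level is given here as the counts per cytosine of the canonical transcript per 1000000 counts at kept nuclear sites, so that genes of different length can be compared. In RNA from a whole culture, fewer cells with a transcript and less transcript per cell cannot be told apart. Among the peroxiredoxins, PRDX1 stood at 0.883 in MCF10A against 1.13 in MDA-MB-468, and PRDX2 at 0.662 and 0.481. PRDX5, the peroxiredoxin of mitochondria and peroxisomes, was at 0.847 and 2.07, a ratio of 2.45, while PRDX6, the member with a single catalytic cysteine, was at 0.658 and 0.123. The glutathione peroxidase GPX1 was at 1.36 and 0.467, and GPX4, which reduces lipid peroxides in membranes, was at 2.44 and 1.79. The cytosolic superoxide dismutase SOD1 was at 1.25 and 1.28. Thioredoxin, TXN, was at 0.662 and 0.230 and its reductase TXNRD1 at 1.99 and 0.370. The quinone reductase NQO1, a standard NRF2 target, was at 0.712 and 0.281. In MCF10A the order therefore ran from GPX4 and TXNRD1 at the top to PRDX2, TXN and PRDX6 at the bottom, and in MDA-MB-468 from PRDX5 and GPX4 to TXN and PRDX6. With 1 library a line, no spread is available to say which neighbors in these orders differ.

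By the size of the difference alone, 5 of the 10 genes were over 2-fold lower in MDA-MB-468 (PRDX6, TXNRD1, GPX1, TXN and NQO1), and 1, PRDX5, was over 2-fold higher. The wider comparison used counts summed over all basic exons in place of the level. By these, among 8482 protein-coding genes with at least 20 kept sites in a line, 38.2% were over 2-fold lower and 30.3% over 2-fold higher. These shares include genes with no kept site in 1 of the lines, and most genes were read less deeply than the 10. By the same sums the median ratio of MDA-MB-468 to MCF10A was 0.560 over the 10 genes and 0.833 over all of those genes. The lowest ratios of the level were 0.186 for TXNRD1, which was 0.196 by the sums, and 0.187 for PRDX6. Only cytosines that reached the coverage minimum counted, and in MDA-MB-468 these were 20.2% of the PRDX6 cytosines, so the ratio of PRDX6 became 0.256 when the minimum was lowered to 5 reads.

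**Figure D2:**
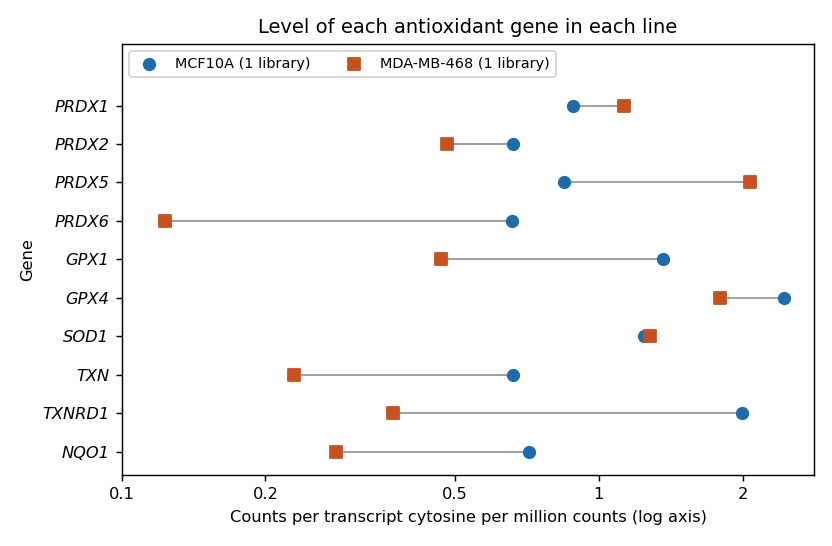
Level of each antioxidant gene (y axis) as counts per cytosine of the canonical transcript per 1000000 counts at kept nuclear sites (x axis, log scale). Circles are the MCF10A library and squares the MDA-MB-468 library, joined by a line. PRDX6, TXNRD1, GPX1, TXN and NQO1 lie over 2-fold lower in MDA-MB-468, and PRDX5 lies over 2-fold higher.

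The nonconversion of single genes ranged from 1.43% (GPX4) to 3.53% (TXN) in MCF10A and from 1.18% (GPX4) to 5.30% (NQO1) in MDA-MB-468. For comparison, the median over protein-coding genes with at least 20 kept sites was 1.79% in MCF10A (7281 genes, quartiles 1.34% and 2.51%) and 1.45% in MDA-MB-468 (6443 genes, quartiles 1.07% and 2.0%). In MCF10A 7 of the 10 genes were above that median and 3 above the upper quartile. In MDA-MB-468 these were 9 and 8 genes. GPX4 was the only gene below the median in both lines. TXN was at the 88.8th percentile of genes in MCF10A and at the 94.0th in MDA-MB-468, and NQO1 was at the 66.3rd and the 97.8th.

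**Figure D3:**
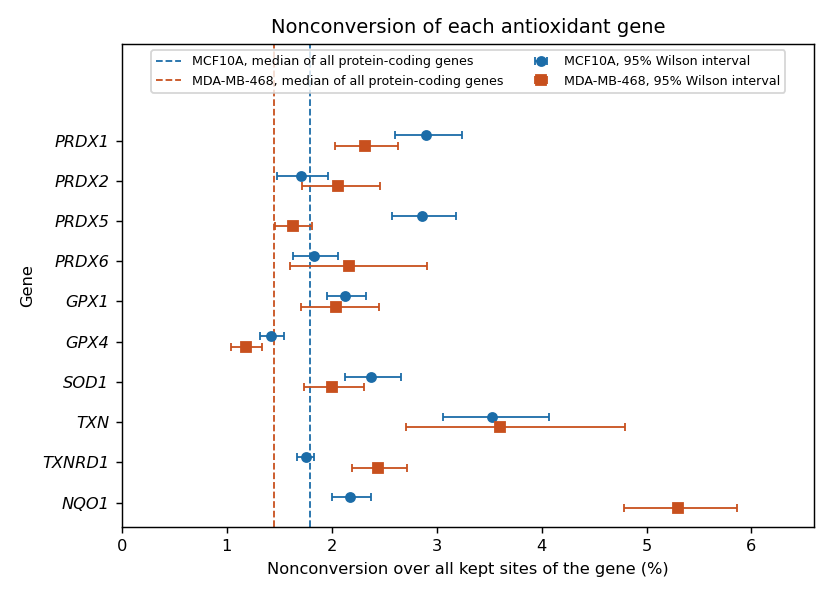
Nonconversion over all kept sites of each antioxidant gene (x axis, percent; y axis, gene), with circles for MCF10A, squares for MDA-MB-468 and 95% Wilson intervals as bars. Dashed lines are the medians over protein-coding genes with at least 20 kept sites, 1.79% (MCF10A) and 1.45% (MDA-MB-468). NQO1 in MDA-MB-468 stands at 5.30%, and GPX4 is below the dashed line of its own library in both lines.

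PRDX1 is an abundant cytosolic peroxiredoxin on chromosome 1 (GRCh37, minus strand). Its m5C sites lay in a different coding exon in each line, and the sequences are shown here to let the 2 runs be compared, with called cytosines in capitals, 5′ to 3′ on the transcript strand. The first is called in MCF10A at chr1:45984643-45984671 (exon 2 of 6), and the second in MDA-MB-468 at chr1:45981420-45981448 (exon 3).
PRDX1 exon 2: CaaagccaCagCtgttatgccagatggtC
PRDX1 exon 3: tgacttcacCtttgtgtgcCCcacggaga
In exon 2 the 4 sites of MCF10A had 5 of 26, 5 of 26, 5 of 29 and 4 of 13 reads unconverted, and the other kept cytosines between them were at 15.4% to 17.4%. No cytosine of this exon reached a coverage of 10 in MDA-MB-468, where 16 of 56 counts below the minimum were unconverted in the same window. In exon 3, 5 of 34 or 5 of 35 reads were unconverted at each of the 3 sites of MDA-MB-468, against 1 of 100 to 1 of 102 in MCF10A. All 9 kept cytosines of that window were between 8.82% and 14.7% in MDA-MB-468, and the whole exon was at 11.3% (Wilson 8.91% to 14.2%, 20 sites) against 1.81% (1.27% to 2.57%, 26 sites). The cytosines of a window are covered largely by the same reads, and the number of unconverted reads hardly changed from one to the next. The coding part of exon 6 went the other way, at 4.40% in MCF10A against 1.77%, with no m5C site. Over the whole gene PRDX1 was at 2.90% in MCF10A and 2.31% in MDA-MB-468.

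PRDX2, a cytosolic peroxiredoxin best known from red cells, had no m5C site among 233 and 200 kept sites, at 1.71% and 2.06%. Its highest ratios at a coverage of at least 20 were 2 of 25 reads (MCF10A) and 3 of 23 (MDA-MB-468), both below the threshold (adjusted p = 1 and 0.531, Fisher's exact test). PRDX5 was at 2.86% in MCF10A and 1.63% in MDA-MB-468, although MDA-MB-468 held more PRDX5 counts. Its m5C site at chr11:64085676, in the 5′ UTR, had 6 of 32 reads unconverted in MCF10A against 2 of 47 in MDA-MB-468. The site was predicted to be paired in a basic transcript other than the canonical one. The coding parts of PRDX5 exons 1 and 5 were at 3.83% and 4.98% in MCF10A against 1.60% and 0.347%, but that of exon 6 was at 2.21% against 3.22%. The highest ratio of PRDX5 in MDA-MB-468 at a coverage of 20 or more was 2 of 27 reads, at chr11:64089174 (adjusted p = 1, Fisher's exact test). The lowest p of PRDX5 between the lines was at chr11:64085710, where 6 of 80 reads were unconverted in MCF10A and 0 of 112 in the cancer line (p = 0.00467 and adjusted p = 1, two-sided Fisher's exact test). PRDX6 was at 1.83% and 2.16%. Its m5C site at chr1:173446555, near the start of the coding sequence, had 5 of 31 reads unconverted in MCF10A, within coding sequence of exon 1 that was at 6.35% (Wilson 4.85% to 8.28%, 30 sites). In MDA-MB-468 the site had 0 of 8, below the coverage minimum, and the first exon of PRDX6 had no kept site there. The highest ratio of PRDX6 in that line at a coverage of 20 or more was 2 of 25 reads at chr1:173454531 (adjusted p = 1, Fisher's exact test).

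GPX1, a selenoprotein that reduces hydrogen peroxide in the cytosol and mitochondria, held the only m5C sites called in both lines. They lie in exon 1, in the coding sequence, at chr3:49395604-49395632 on the minus strand. The sequence is printed because all of its called cytosines (in capitals) fall in the arms of a predicted hairpin.
GPX1 exon 1: gggagCCtgtgagcctgggCtCCCtgcgg
In 5′ to 3′ order the 6 cytosines in capitals had 21 of 99, 24 of 117, 62 of 245, 56 of 247, 52 of 247 and 57 of 247 reads unconverted in MCF10A. In MDA-MB-468 they had 5 of 14, 6 of 17, 8 of 36, 6 of 36, 6 of 36 and 6 of 36. The ratios therefore lay between 20.5% and 25.3% in MCF10A and between 16.7% and 35.7% in MDA-MB-468, and the intervals of the lines overlapped at every site. In a two-sided Fisher's exact test the p of these 6 sites between the lines ran from 0.212 to 0.837. The adjusted p against the background was lowest at chr3:49395613, with 2.3e-45 in MCF10A against 5.0e-05 in the cancer line (one-sided Fisher's exact test).

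In the structure predicted for the canonical GPX1 transcript, positions 155 to 161 pair with positions 172 to 178. All 6 cytosines of these paired positions were called in both lines. The 2 cytosines in the loop between them, at positions 168 and 169, had 1 of 203 and 1 of 206 reads unconverted in MCF10A, and 0 of 30 and 3 of 30 in MDA-MB-468. Another kept cytosine of the window, at position 181, had 10 of 250 and 1 of 37. It is unpaired in this structure and was predicted to be paired only in another basic transcript. Paired cytosines resist bisulfite, which is why the methods of the study leave them out, and the part of pairing in these 6 calls was not tested. Without the called sites GPX1 dropped to 1.01% (MCF10A) and 1.42% (MDA-MB-468), from 2.13% and 2.05% with them.

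The run ends 42 nt upstream of the selenocysteine codon of GPX1, a UGA read as an amino acid, at chr3:49395565-49395567, and begins 60 nt upstream of it. GPX4 and TXNRD1 are selenoproteins too, with codons at chr19:1105402-1105404 and chr12:104742191-104742193. No cytosine was called within 50 nt of either. Nonconversion in those windows was 1.74% and 1.90% for GPX4 and 1.39% and 0.235% for TXNRD1, in MCF10A and MDA-MB-468. Of the GPX1 sites, 127 of 190 also lie on an exon of another annotated gene on the same strand, but the called sites do not.

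**Figure D4:**
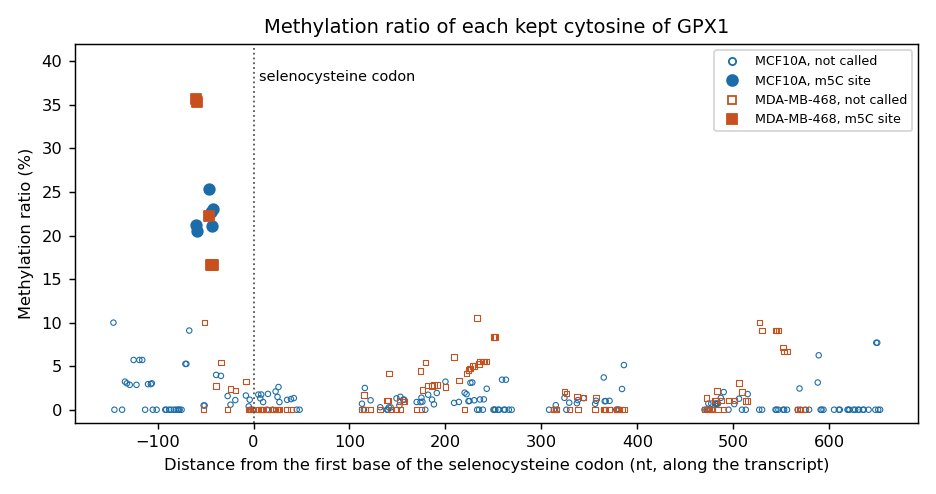
Methylation ratio (y axis, percent) of each kept cytosine of the canonical GPX1 transcript by its distance from the first base of the selenocysteine codon (x axis, nt, negative upstream). Circles are MCF10A and squares MDA-MB-468, large and filled where called m5C. The called cytosines stand 42 to 60 nt upstream of the codon, at 20.5% to 25.3% in MCF10A and 16.7% to 35.7% in MDA-MB-468.

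GPX4 was at 1.43% in MCF10A and 1.18% in MDA-MB-468. Its 2 m5C sites, at chr19:1105192 and chr19:1105194 on the plus strand, are coding sequence in the canonical transcript and 5′ UTR in another basic transcript. They were predicted to be paired in a basic transcript other than the canonical one. They had 6 of 37 and 8 of 47 reads unconverted in MCF10A, and 0 of 8 each in MDA-MB-468, below the coverage minimum. The highest GPX4 ratio in MDA-MB-468 at a coverage of at least 20 was 2 of 21 reads at chr19:1105671 (adjusted p = 1, Fisher's exact test). SOD1 had no m5C site among 110 and 101 kept sites, at 2.38% and 2.0%. At a coverage of at least 20, its highest ratio in MCF10A was 8 of 118 reads at chr21:33032028 (adjusted p = 0.192, Fisher's exact test). In MDA-MB-468 it was 3 of 25 reads at chr21:33032133 (adjusted p = 0.642, Fisher's exact test).

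TXN, the small dithiol protein that passes electrons to the peroxiredoxins, had no m5C site although its nonconversion was high, at 3.53% (MCF10A) and 3.61% (MDA-MB-468). The 5′ UTR held 122 of its 182 unconverted counts in MCF10A (25 of 45 in MDA-MB-468), at 6.32% (Wilson 5.32% to 7.49%) and 4.73% (3.22% to 6.88%), where all 22 kept cytosines had an unconverted read in MCF10A but 17 of 22 in MDA-MB-468. At a coverage of at least 20, the highest ratio in MCF10A was 8 of 96 reads at chr9:113018733 (adjusted p = 0.0700, Fisher's exact test). The same site had 2 of 26 in MDA-MB-468 (adjusted p = 1, Fisher's exact test). The highest in MDA-MB-468 at such a coverage was 3 of 33 reads at chr9:113018756 (adjusted p = 0.918, Fisher's exact test). The coding sequence was at 1.86% and 2.79%.

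TXNRD1, the selenoenzyme that reduces thioredoxin, had 1 m5C site in MCF10A but 7 in MDA-MB-468, all of which had lower ratios in MCF10A. Of these, 5 lie in the 5′ UTR of transcripts other than the canonical one, at chr12:104680945-104680973 on the plus strand, in a GC-rich stretch shown with the called cytosines in capitals.
TXNRD1 5′ UTR: cgggggacggCCtgCCggCggggacgaca
In MDA-MB-468 these had 8 of 23, 8 of 23, 10 of 27, 9 of 27 and 8 of 28 reads unconverted. In MCF10A they had 4 of 67, 4 of 66, 6 of 71, 6 of 67 and 4 of 63, or 5.97% to 8.96%, and none was called. None of the 5 was predicted to be paired. The other sites of MDA-MB-468 were in the 3′ UTR, at chr12:104742856 with 5 of 22 reads against 2 of 129, and at chr12:104743857 with 5 of 25 against 1 of 154. The site of MCF10A, chr12:104719121 in the coding sequence, had 6 of 47 reads unconverted there and 0 of 15 in MDA-MB-468. Exon 16 held no m5C site and was at 12.8% in MDA-MB-468 against 2.37% in MCF10A. All 22 of its cytosines kept in MDA-MB-468 and all 30 kept in MCF10A had an unconverted read.

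NQO1 was at 2.18% in MCF10A and 5.30% in MDA-MB-468 (Wilson 4.79% to 5.86%), and at 5.09% without its called sites. Its highest ratio at a coverage of at least 20 in MCF10A, where none was called, was 3 of 22 reads at chr16:69743482 (adjusted p = 0.502, Fisher's exact test). The m5C sites of MDA-MB-468 lie in exon 3 of 6, at chr16:69752073-69752101 on the minus strand.
NQO1 exon 3: taaagaaggCCatCtgagcCcagatattg
In 5′ to 3′ order they had 5 of 18, 4 of 17, 4 of 19 and 5 of 24 reads unconverted, and in MCF10A 2 of 77, 3 of 78, 1 of 84 and 2 of 93. All 16 shared cytosines of this exon were higher in MDA-MB-468, where the exon was at 16.4% (Wilson 12.4% to 21.2%) against 1.71% (1.23% to 2.37%). Coding sequence of exons 2 and 6 was at 7.44% and 8.35% in MDA-MB-468 with no m5C site, against 2.04% and 2.84%. The part of exon 2 that is 5′ UTR in a basic transcript went the other way, at 0.709% (2 of 282 counts) against 2.54%. Exons 4 and 5 were at 2.40% and 0.940% against 0.960% and 0.812%.

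**Figure D5:**
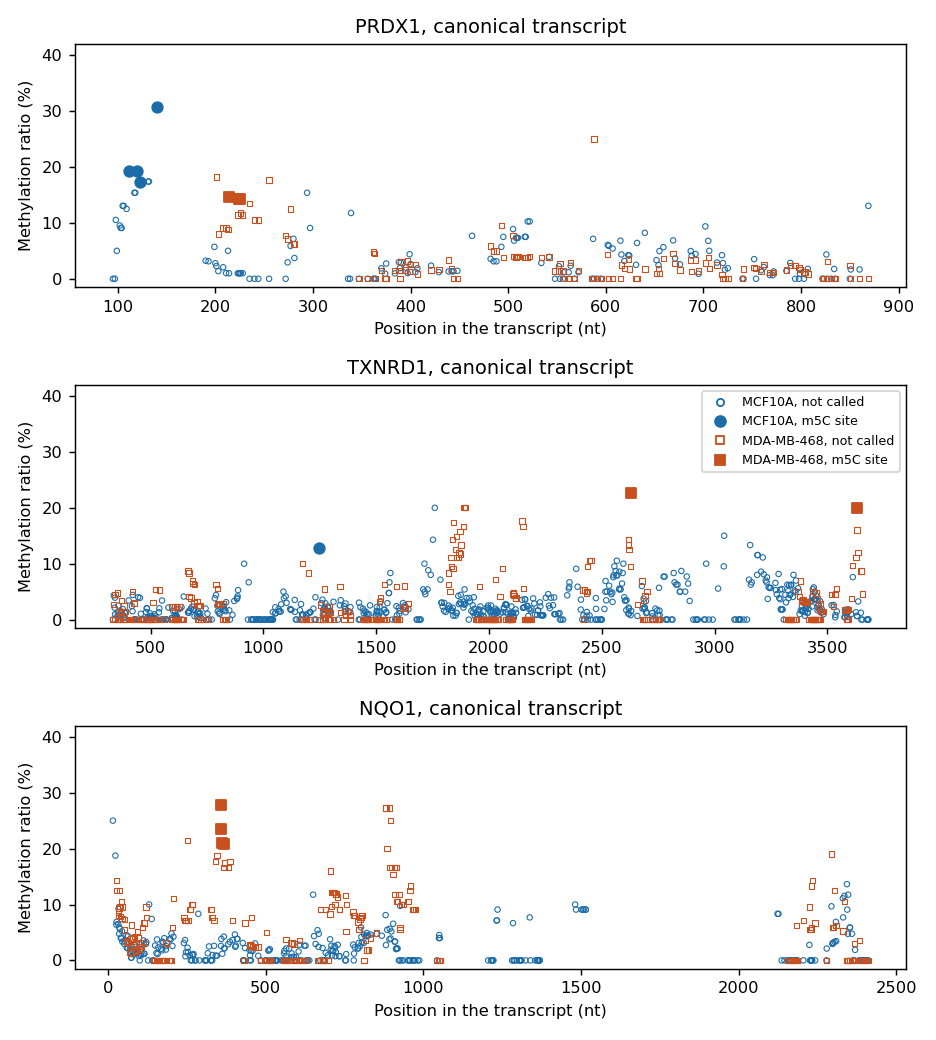
Methylation ratio (y axis, percent) of each kept cytosine along the canonical transcripts of PRDX1, TXNRD1 and NQO1 (x axis, position in nt), with circles for MCF10A and squares for MDA-MB-468, large and filled where called m5C. In MDA-MB-468 raised ratios come in runs, as in NQO1 exon 3 (20.8% to 27.8% at the called sites), and the 5 TXNRD1 sites of the 5′ UTR are not drawn because they are not on the canonical transcript.

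When the lines were compared site by site, none of the 1772 cytosines kept in both lines differed by a two-sided Fisher's exact test with Benjamini-Hochberg adjustment over all shared sites, beside 0.0893% of all 812729 shared sites (0.0202% higher and 0.0691% lower in MDA-MB-468). The smallest adjusted p was 0.181, at the TXNRD1 site chr12:104743857. At an unadjusted p under 0.05 there were 81 sites (4.57%), 70 of them higher in MDA-MB-468 and 11 lower, where over all shared sites 1.14% passed, 0.400% higher and 0.743% lower. TXNRD1 gave 25 of the higher sites, NQO1 24, PRDX1 11, GPX1 4, GPX4 3, PRDX6 2 and SOD1 1. Of the 25 in TXNRD1, 12 were in the 3′ UTR and 6 in exon 16, and of the 24 in NQO1, 15 were in the coding part of exon 6 and 7 in exon 3. Of the lower sites 10 were in PRDX5 and 1 in GPX4, and PRDX2 and TXN had none. Among sites read at least 20 times in both libraries, 52 of 1234 sites were higher at that unadjusted p, beside 0.660% of all such sites. These sites stand next to each other and share reads, so they are not independent. The depth of the lines was unequal on these genes, with a median coverage of 100 in MCF10A and 31 in MDA-MB-468 at the shared sites, beside 24 and 21 over all shared sites. At those depths, with no unconverted read in the other line, 3 unconverted reads (9.68%) in MDA-MB-468 gave a p under 0.05, but 13 (13.0%) were needed in MCF10A. The part of this asymmetry in the count of 70 against 11 was not tested. Of the shared sites, 6 were m5C in both lines, all in GPX1, beside 0.621% of all shared sites. A further 2 were called in MCF10A alone and 14 in MDA-MB-468 alone, beside 4521 and 2488 of all 812729 shared sites.

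For the count by region, a cytosine was 5′ UTR where any basic transcript has it so, then coding sequence, then 3′ UTR. By this order the 5′ UTRs of the antioxidant genes held 3 m5C sites among 419 in MCF10A (0.716%, beside 2.24% of all kept 5′ UTR sites) and 5 among 336 in MDA-MB-468 (1.49%, beside 1.95%). Of the 3 in MCF10A, 2 are the GPX4 sites, which are coding in the canonical transcript, and the 5 in MDA-MB-468 are those of TXNRD1 off its canonical transcript. The coding sequences held 12 among 1436 (0.836%, beside 0.615%) and 13 among 1043 (1.25%, beside 0.551%). The 3′ UTRs held 0 among 708 (beside 0.837%) and 2 among 398 (0.503%, beside 0.739%). Of the m5C sites, 9 of the 15 of MCF10A (60%) and 6 of the 20 of MDA-MB-468 (30%) were predicted to be paired, beside 13.0% and 14.8% of the member sites that were not called. The 6 paired sites of MDA-MB-468 are those of GPX1. A site counted as paired when any folded basic transcript of its gene had it so. In the canonical transcripts the PRDX5 site and the 2 GPX4 sites of MCF10A were unpaired. By the bases on either side, the m5C sites of MDA-MB-468 included 5 of 156 CCT sites (3.21%, beside 0.469% of all kept CCT sites), 4 of 138 CCC (2.90%, beside 1.44%) and 4 of 168 GCC (2.38%, beside 1.34%). In MCF10A no context had more than 2. The motif CNGGG, the G-rich context associated with the methyltransferase NSUN2, was read on the transcript strand from the cytosine on, and 0 of 57 such sites (MCF10A) and 1 of 42 (MDA-MB-468) were called, beside 2.20% and 1.84% of all such sites. None of the 16 and 14 CTCCA sites, the motif of NSUN6, was called, beside 0.681% and 0.491%.

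Pseudogenes of the 10 genes could share reads with them. Of 18 annotated pseudogenes, 5 (MCF10A) and 4 (MDA-MB-468) had kept sites, with 79 and 66 sites in all and no m5C site. The highest nonconversion among them was that of TXNP6 in MDA-MB-468, at 7.34% of 368 counts. Its MCF10A value was 0.620%, and the division of reads between TXN and its copies was not tested.

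Among 58 other genes of redox defense (other peroxiredoxins, superoxide dismutases, glutathione and thioredoxin enzymes, NADPH-producing enzymes and NRF2 regulators), 53 (MCF10A) and 44 (MDA-MB-468) had kept sites. In MCF10A they held 129 m5C sites among 10916 (1.18%, beside 0.960% of all kept sites), on 22 genes. In MDA-MB-468 they held 32 among 7174 (0.446%, beside 0.840%), on 7 genes. Among those with the most was SOD2, the mitochondrial superoxide dismutase, with 23 in MCF10A but 0 in MDA-MB-468. PRDX4, the peroxiredoxin of the endoplasmic reticulum, had 13 and 3, AKR1C2 had 13 and 0, and TALDO1, the transaldolase, had 3 and 12. The median nonconversion of these other redox genes was 2.04% (MCF10A) and 1.64% (MDA-MB-468), beside 1.79% and 1.45% over protein-coding genes with at least 20 kept sites. Of all protein-coding genes with kept sites, 21.2% and 17.0% had at least 1 m5C site.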

How the data were processed

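The labels name Trim Galore, Bismark and hg19 with no role, and the study's methods name MeRanTK for aligning the RNA reads and calling cytosines. For every cytosine the authors deposited raw counts, unconverted and converted. The lowest deposited coverage was 5, and every nuclear position lay on a cytosine of GRCh37. The methods allow limited read duplication, so counts can include copies of a molecule. Here cytosines read at least 10 times on same-strand exons of GENCODE 44 basic transcripts (and mitochondrial sites, for the background only) were kept. Background and calls were computed over all kept sites of a library, the comparison between lines over all shared sites. The study's QNB test was replaced by Fisher's exact test. The 51 member transcripts were folded with RNAfold (ViennaRNA 2.7.2, MEA gamma 0.1, 70 degrees, pairs within 150 nt), and no structure filter was applied to the main results. A cytosine was taken as predicted paired if any of these transcripts had it so. The code, tested on simulated data, used scipy 1.17.1, pandas 2.3.3, pysam 0.24.0 and Python 3.11.15. Genes, lists and alternatives were chosen with earlier results of these data known. All 10 genes are named. For each gene and line the text gives the called site with the highest ratio or, where none was called, the highest ratio at a coverage of at least 20, and the other sites of the runs were added after their values were seen. Of the other redox genes, those with the most m5C sites are named, and a few gene-level results are not reported here. Alternatives covered coverage minimum, test, background, structure, transcripts and ratio. Not analysed here were mitochondrial genes, mouse samples and viral infection.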

Additional observations from a re-analysis of the deposited data

Results flagged for a closer look

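Outside the exons, the MDA-MB-468 library held 6 m5C sites among 25 kept cytosines in introns of GPX4, in signal that the comparisons above do not use. They lie within 7 nt at chr19:1104588-1104594, with ratios from 45.5% to 54.5% at a coverage of 10 to 12. In MCF10A 5 intron cytosines of GPX4 reached a coverage of 10 and none was called. Across the introns of all 10 genes, 1 site was called in MCF10A among 145, in TXNRD1, and the 6 of GPX4 were the calls among 384 in MDA-MB-468.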

How the results depend on the processing

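No paired analysis was possible because each line has 1 library. The number of m5C sites on the 10 genes was 15 in MCF10A, and it fell to 7 when a ratio of at least 0.2 was required and to 6 when predicted paired sites were left out. Under the other settings for MCF10A it was 14 to 18, and for MDA-MB-468, 20 in the main setting, it was 14 to 20. At a coverage minimum of 20, 14 of the 18 sites of MCF10A and 15 of the 17 of MDA-MB-468 were sites of the main setting. The main sites missing there were read fewer than 20 times. With a coverage minimum of 5, 2 of the 15 sites of MCF10A and 4 of the 20 of MDA-MB-468 were no longer called, and 4 of the latter were lost when all deposited sites entered the background. Nonconversion, 1.95% in MCF10A, was 2.38% as a mean over sites, 1.86% at sites kept in both lines, 1.83% without called sites and 1.83% without paired sites. In MDA-MB-468, at 2.11%, it was 2.92% as a mean over sites, 1.96% at a coverage minimum of 20 and 1.98% without called sites. The mean over sites weighs shallow sites like deep ones, and leaving out called sites lowers the value by construction. The cause of the other shifts was not tested. No site differed between the lines at a coverage minimum of 20 or 5, where the smallest adjusted p was 0.123 and 0.199 (Fisher's exact test). Leaving out paired sites, or requiring a difference of at least 0.2, only took subsets of the main comparison with its adjusted p. No site passed there, so these 2 settings could give none. When only sites called in at least 1 line were tested, 12 of 22 differed, all higher in MDA-MB-468 and in PRDX1, TXNRD1 and NQO1, beside 1808 of all 12052 such sites. That set was chosen by the same counts, so its adjusted p-values are too small. The level alternative (all basic exons, coverage minimum 10 or 5), added after seeing the data, reversed no ratio.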
